A study of Rattus norvegicus with 180 samples.

Results

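The miRNAs rno-miR-219-5p, rno-miR-219-2-3p and rno-miR-338 (here without the rat prefix) are small RNAs known from myelin, the sheath that glial cells wrap around axons. They were chosen by name, as 3 of the 717 miRNAs on the array, and all 3 were among the 345 miRNAs that could be tested. The data cover 55 organs of male Sprague-Dawley rats, 10 weeks old, on 1-color miRNA arrays. Rats 4, 5 and 6 were perfused with saline before dissection and gave 1 array per organ, and 5 of the organs were also taken from rats 1, 2 and 3, which were not perfused, so that there were 180 arrays. The nervous system was represented by optic nerve, cerebral cortex, hippocampus, thalamus, cerebellum, medulla oblongata, the cervical, pectoral and lumbar levels of the spinal cord, and the ischial (sciatic) nerve, with 3 arrays each. The cerebral regions were cut out by eye, every sample is bulk RNA of a dissected organ, and no treatment other than perfusion was given. Each organ thus holds a mixture of cells, and more cells of a type and more RNA per cell cannot be told apart in it.

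In the brain, optic nerve and spinal cord, myelin is made by oligodendrocytes, and in peripheral nerves such as the ischial nerve by Schwann cells. miR-219 and miR-338 are known to rise as oligodendrocyte precursors mature, and they repress genes that keep the precursors dividing, among them Pdgfra, Sox6 and Hes5. A miRNA is cut from a hairpin precursor, of which the strand nearer the 5′ end (5p arm) and the strand nearer the 3′ end (3p arm) may both be kept. miR-219-5p and miR-219-2-3p are the 2 arms of one such hairpin, whereas miR-338 comes from another gene.

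The mature sequences are shown because a miRNA recognizes its targets mainly through its seed, bases 2 to 8, given here in capitals (RefSeq, rat build GRCr8; RefSeq calls them miR-219a-5p, miR-219a-2-3p and miR-338-3p).
miR-219-5p: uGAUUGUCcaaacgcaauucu
miR-219-2-3p: aGAAUUGUggcuggacaucugu
miR-338: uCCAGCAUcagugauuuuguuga
The 3 seeds differ from each other, and among the 693 mature rat miRNAs in the RefSeq table each belonged to 1 miRNA alone. miR-219-5p lies at chr3:33516561-33516581 and miR-219-2-3p at chr3:33516517-33516538, both on the minus strand in the hairpin gene Mir219-2 (chr3:33516504-33516599), which overlaps the protein-coding gene Cercam and a long noncoding RNA. miR-338 lies at chr10:105796345-105796367 on the minus strand in Mir338, which overlaps the protein-coding gene Aatk. The hairpin of Mir219-2 is shown with both arms in capitals, miR-219-5p first, since the arms are compared below.
Mir219-2: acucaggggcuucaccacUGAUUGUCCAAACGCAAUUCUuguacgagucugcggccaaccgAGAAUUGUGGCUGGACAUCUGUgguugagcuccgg
miR-219-5p was also found whole in the hairpin of Mir219a1 (chr20:4831580-4831689, plus strand, between Hsd17b8 and Ring1), so its probes cannot tell which of the 2 genes it came from. The 3p arms of the 2 hairpins do differ, since miR-219-2-3p and miR-219-1-3p have the same base at 15 of 22 positions.
miR-219-1-3p: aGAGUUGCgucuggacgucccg
On the array, miR-219-1-3p was detected on 0 of 180 arrays, with a highest signal of -0.54 after background subtraction.

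Each array held 14340 spots for miRNAs, none of which was saturated. Detection required over 50% of a miRNA's spots on the array to exceed background clearly. The 36 arrays of the nervous system, eyeball and pituitary gland had 139 to 244 miRNAs detected. Signals are normalized intensities. For log2 values, anything lower than 10.8 was raised to this floor, so that values there have no order. Each member was read by 2 probe sequences of 10 spots each, whose log2 signals correlated over the 27 arrays of the central nervous system at 0.999 for each member. Levels of the members were not compared with each other, because their probes differ. Signals of marker miRNAs were summed below, and in such sums the brightest probes weigh most.

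3 arrays touch the results below. The lumbar spinal cord array of rat 4 correlated at 0.949 with the other rats' arrays of that organ over the 345 miRNAs tested, and at 0.922 with ischial nerve, and the optic nerve array of rat 4 correlated at 0.943 with its own organ. The other arrays of the 12 organs lay between 0.968 and 0.998. The hippocampus array of rat 5, at 0.983, was within that range and was singled out because all 3 members were low on it, so that leaving it out is a choice made on the members' own values.

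miR-219-2-3p was detected on all 27 arrays of the 9 central nervous system organs and on 0 of the 153 other arrays. It was the single miRNA of the 717 with this pattern. Its signal was 71.5 to 1255 on the 27 arrays, and the highest on any other array was 2.36, so that the groups did not overlap. Neither the ischial nerve nor the eyeball nor the pituitary gland had a detectable signal, with highest values of -0.18, -0.39 and -0.06.

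miR-219-5p was also detected on all 27 central nervous system arrays, at 133 to 1450, and on 49 of the other 153. Its highest signal elsewhere was 82.5, in the adrenal gland. The adrenal gland had 79.7, 82.5 and 81.9 in rats 4, 5 and 6, thymus 53.1, 51.8 and 50.5, and duodenum 48.9, 50.4 and 48.7. These low levels varied little between rats, and with jejunum, rectum, cervical lymph node, spleen and glandular stomach they made 8 of the 43 organs outside the nervous system in which miR-219-5p was detected on all 3 arrays. miR-219-2-3p was detected in none of these 8 organs, and neither was miR-219-1-3p. Among the 122 miRNAs that every central nervous system array detected, the 2 arms of miR-219 were the only ones whose lowest array there lay above the highest other array of a perfused rat. The gap was 1.61-fold for miR-219-5p and, measured from the floor, 6.60-fold for miR-219-2-3p, whose other arrays all had signals under it. The lowest detected signal of an array ran up to 273, so 6.60-fold is no bound for arrays of low sensitivity.

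miR-338 was detected more widely, on 164 of the 180 arrays, and on all 3 arrays of 34 of the 43 organs outside the nervous system. The ischial nerve had 2527, 2652 and 2625 in rats 4, 5 and 6, within the range of the central nervous system (800.3 to 4875). The next organs were brown adipose tissue at 269, 235 and 194, eyeball at 244, 194 and 247, and testis at 226, 102 and 247. Every array of the central nervous system and the ischial nerve lay above every other array of a perfused rat, by at least 2.97-fold. miR-338 was the single miRNA of 112 detected on all 30 of these arrays of which that was true. It was detected in no array of pancreas, glandular stomach or rectum, with mean signals of 36.2, 8.24 and 3.73. The mean of pancreas lay above that of kidney (21.7), where all 3 arrays detected it. Lack of detection in pancreas thus does not show a lower level there.

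**Figure D1:**
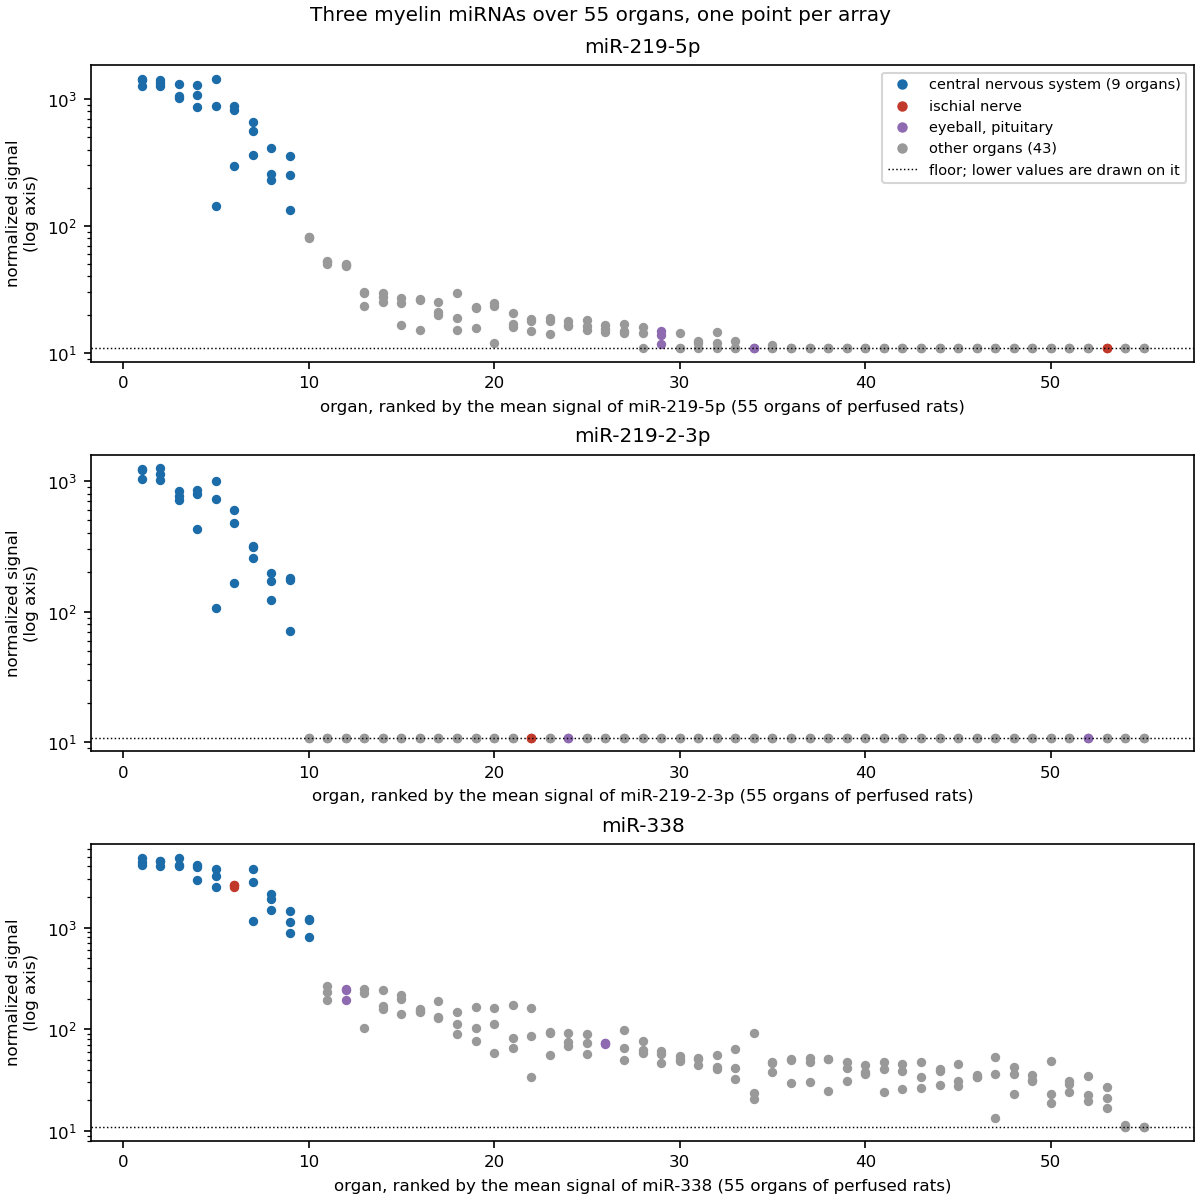
Normalized signal (log axis) of miR-219-5p, miR-219-2-3p and miR-338 on each array of a perfused rat, with the 55 organs ranked along the horizontal axis by the mean signal of that miRNA, and values under the floor of 10.8 drawn on it. The 9 central nervous system organs (blue) hold the highest ranks for both arms of miR-219, with the ischial nerve (red) at the floor, whereas for miR-338 the ischial nerve ranks among them, at 6.

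The means over the 9 central nervous system organs and the 43 organs outside the nervous system were compared with limma on the log2 scale. All 3 members were higher in the central nervous system, a comparison in which 95.9% of the 345 tested miRNAs were called at an adjusted p under 0.05, 40% of them higher and 55.9% lower. miR-219-5p was 5.46 higher on the log2 scale (SE 0.07, adjusted p = 1.9e-105), and every array lay above the 129 arrays outside. miR-219-2-3p was 5.35 higher with the other organs at the floor (SE 0.06, adjusted p = 4.3e-110, a miRNA that was tested only because these organs detected it), or at least 28.4-fold when each undetected array was set to its lowest detected signal where that lay above the floor, and miR-338 was 5.61 higher (SE 0.09, adjusted p = 2.1e-92). Most arrays outside the nervous system are at the floor for miR-219, with no spread, so that the SEs of both arms in the fit on all arrays, here and below, are too small. The ischial nerve was compared with the same 43 organs, where 68.4% of miRNAs were called, 20.3% as higher and 48.1% as lower. miR-338 was 5.63 higher there (SE 0.25, adjusted p = 3.4e-42), with no overlap between the 3 arrays and the 129. miR-219-2-3p was below background on both sides. miR-219-5p, detected on 1 of 3 ischial nerve arrays at 2.98 to 3.78, was at the floor in the nerve and differed from the other organs by -0.48 (adjusted p = 0.0192), a call that another floor, the authors' table, slide as a fixed term and leaving out rat 5 or rat 6 ended.

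Within the nervous system all 3 members had their highest means in the cervical and pectoral cord, joined by the lumbar cord for miR-338 but not for miR-219. This order depends on the scaling, since optic nerve led for each member once the 75th percentile was taken over all 717 miRNAs in place of 37. The low lumbar mean of miR-219 also came from 1 array, that of rat 4. There miR-219-5p lay at -2.97 and miR-219-2-3p at -3.01 on the log2 scale against the other rats. miR-338 in rats 4, 5 and 6 was 4120, 4875 and 4416 in the cervical, 4134, 4831 and 4041 in the pectoral and 4072, 4560 and 4572 in the lumbar cord. The 3 levels of the cord overlapped. In medulla oblongata, the lowest part of the brainstem, it was 2952, 3923 and 4171, and in optic nerve 2492, 3817 and 3194. Hippocampus had 3747, 1158 and 2806 and thalamus 2145, 1502 and 1915. Cerebral cortex (1465, 1125 and 883) and cerebellum (1212, 1192 and 800.3) were the lowest, and neither overlapped with the cord, the medulla, the optic nerve or the ischial nerve.

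miR-219-5p in rats 4, 5 and 6 was 1413, 1338 and 1280 in the cervical cord and 1276, 1428 and 1435 in the pectoral cord. Medulla had 1019, 1307 and 1069 and optic nerve 875, 1088 and 1290. These 4 organs varied little between rats, unlike the lumbar cord (144, 1450 and 877) and hippocampus (887, 299.6 and 818), in each of which 1 rat lay far under the others. Thalamus had 662, 362 and 557. Cerebral cortex (412, 229.6 and 258) and cerebellum (355, 253 and 133) were lowest, below every array of the cervical and pectoral cord, medulla and optic nerve.

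miR-219-2-3p had 1045, 1216 and 1233 in the cervical cord, 1013, 1255 and 1141 in the pectoral cord and 719, 774 and 842 in medulla. Here the cord at these levels lay above the medulla on every array. Optic nerve had 427, 791 and 860.3, lumbar cord 106, 1010 and 726, and hippocampus 596, 165 and 477. The arrays that were low for miR-219-5p in these organs were low for miR-219-2-3p as well. Thalamus had 318, 258 and 315, cerebral cortex 172, 198 and 123 and cerebellum 181, 176 and 71.5.

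**Figure D2:**
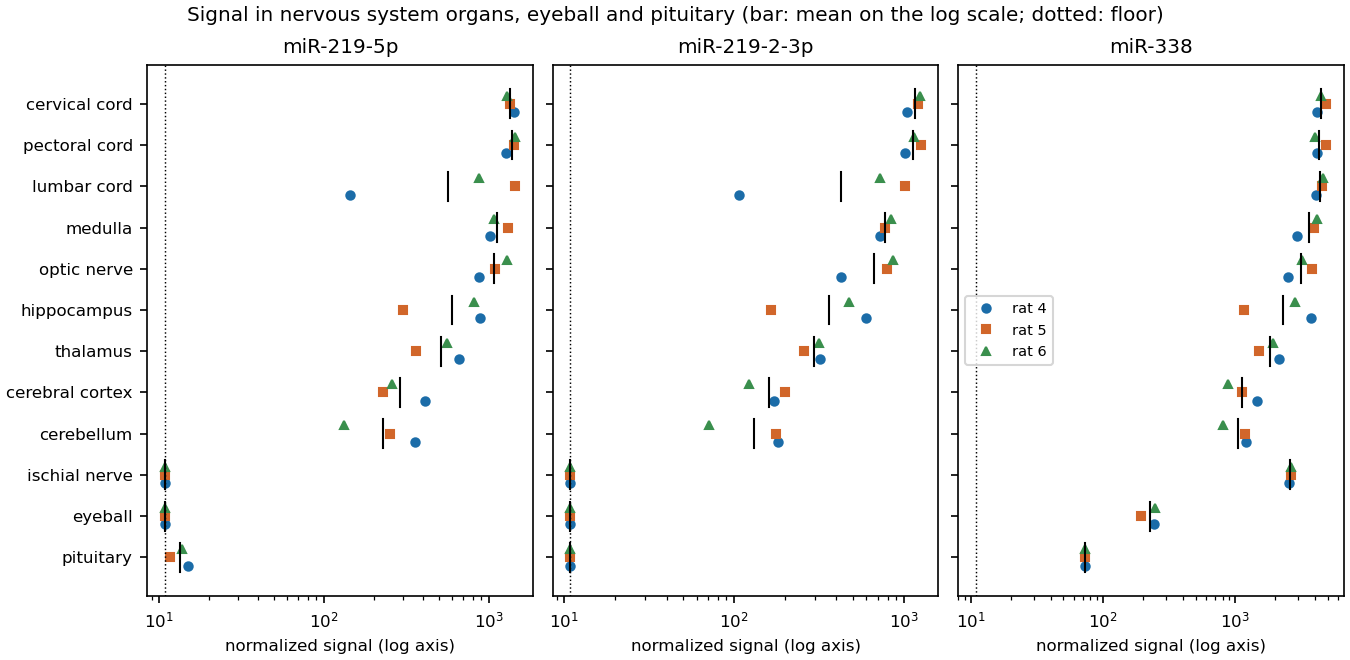
Normalized signal (log axis) of each member in the nervous system organs, eyeball and pituitary gland, with 1 point per rat and a bar at the mean on the log scale. Lumbar cord of rat 4 and hippocampus of rat 5 lie far to the left of the other rats for miR-219, but only hippocampus does for miR-338.

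The order of neighbouring organs was not resolved. A fit on the 27 central nervous system arrays alone gave SEs of 0.59 for miR-219-5p and 0.61 for miR-219-2-3p, against 0.27 and 0.24 in the fit on all arrays, for a pair of organs. That fit pools the lumbar cord, whose log2 SD (1.75 for miR-219-5p and 1.76 for miR-219-2-3p) was the largest of these organs. For pairs without it the SEs may be too large. In that fit, 0 of the 8 neighbouring pairs in the order of levels passed for any member, with lowest adjusted p of 0.332 for miR-219-5p, 0.439 for miR-219-2-3p and 0.158 for miR-338. Of the 36 pairs of central nervous system organs, 8 were called for miR-219-5p, 11 for miR-219-2-3p and 19 for miR-338, where a pair called a median of 29.3% of all tested miRNAs. The fit on all arrays called 26, 28 and 18 of the same pairs in the same order of members, and over its 66 pairs, which include ischial nerve, eyeball and pituitary gland, a median of 43.4% of all tested miRNAs was called. miR-338 was lower in cerebral cortex than in ischial nerve (-1.20, SE 0.35, adjusted p = 0.00212, with 51.9% of miRNAs called) and lower in cerebellum (-1.31, SE 0.35, adjusted p = 0.000786, with 47% called), and its differences between ischial nerve and the other 7 organs did not pass.

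Optic nerve and ischial nerve set a tract myelinated by oligodendrocytes against one myelinated by Schwann cells. Both arms of miR-219 were present in the one and at the floor in the other, while miR-338 was high in both. In this comparison 38.3% of miRNAs were called, 24.3% as higher and 13.9% as lower in optic nerve. miR-219-5p was at least 98.8-fold higher in optic nerve (log2 difference at the floor 6.63, SE 0.27, adjusted p = 9.4e-48) and miR-219-2-3p at least 61.1-fold (5.93, SE 0.24, adjusted p = 9.4e-48). These errors carry the limit given above, miR-219-2-3p was tested only because central nervous system organs detected it, and the exact permutation test (two-sided, 3 arrays against 3) gave its smallest possible p, 0.1, for both arms. miR-338 differed by 0.26 (SE 0.35, adjusted p = 0.805), with a 95% interval of -0.44 to 0.96, or from 0.738-fold to 1.95-fold. Within rats 4, 5 and 6 the difference of miR-338 was -0.02, 0.53 and 0.28, against 6.34, 6.65 and 6.90 for miR-219-5p. On the slide that held both nerves of rat 5, the differences were 6.65, 6.19 and 0.53 in the order miR-219-5p, miR-219-2-3p and miR-338.

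The purity of these 2 nerves was read from marker miRNAs of other cells. Of 4 neuronal miRNAs (miR-124, miR-128, miR-137 and miR-153), 2 were detected in all 3 optic nerves and 3 in all 3 ischial nerves, with summed signals of 456 to 727 and 68.9 to 72.1, against 15239 to 16339 in cerebral cortex. Fibroblast miRNAs (miR-199a-3p and miR-214) summed to 1769 to 1973 in ischial nerve, to 303 and 329 in the optic nerves of rats 5 and 6, and to 2084 in that of rat 4. The optic nerve of rat 4 also held skeletal muscle miRNAs (miR-1, miR-133a, miR-133b and miR-206) at a sum of 4979, against 23.3 and 21.2 in the other rats, and had the lowest value of each member. Without that array the differences from ischial nerve were 6.77, 6.25 and 0.43 in the same order of members (adjusted p = 0.554 for miR-338). All 5 epithelial miRNAs (miR-200a, miR-200b, miR-200c, miR-141 and miR-429) were undetected in both nerves.

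Optic nerve, a tract with few nerve cell bodies, was then set against cerebral cortex. All 3 members were higher in optic nerve, where 47.8% of miRNAs were called, 16.2% as higher and 31.6% as lower (41.4% called and 14.5% higher in the fit on the central nervous system arrays alone, from which the following errors come). The log2 differences were 1.88 for miR-219-5p (SE 0.59, adjusted p = 0.0139), 2.04 for miR-219-2-3p (SE 0.61, adjusted p = 0.0101) and 1.46 for miR-338 (SE 0.31, adjusted p = 0.00054). In the fit on all 180 arrays the differences were the same, with adjusted p of 4.4e-10, 2.1e-13 and 0.000192. Over the alternatives they ran from 1.63 to 2.84, 1.65 to 3.00 and 1.09 to 2.42 in the same order of members. They were highest in the authors' table. Each member was higher in optic nerve in 3 of 3 rats, with no overlap between the 3 arrays of each organ. With 3 arrays against 3, the exact permutation test (two-sided) gave its smallest possible p, 0.1, for each. Without the optic nerve array of rat 4 the differences were 2.03, 2.35 and 1.62 in the same order of members. The 2 organs shared a slide in rats 4 and 6, and within these slides miR-219-5p differed by 1.09 and 2.32, miR-219-2-3p by 1.31 and 2.81, and miR-338 by 0.77 and 1.86.

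The spinal cord (3 levels) was higher than the cerebrum (cortex, hippocampus and thalamus) for all 3 members, where 51.3% of miRNAs were called in the fit on all arrays, 21.2% as higher and 30.1% as lower, and 43.5% were called and 18% higher in the fit on the central nervous system arrays alone, which again gives the errors. miR-338 was 1.38 higher (SE 0.18, adjusted p = 2.7e-06), miR-219-2-3p 1.68 higher (SE 0.35, adjusted p = 0.000583) and miR-219-5p 1.19 higher (SE 0.34, adjusted p = 0.00763). The fit on all arrays gave adjusted p of 2.3e-09, 7.4e-22 and 1.9e-11 for the same differences. An exact permutation of the organ labels within each rat (8000 arrangements, two-sided) gave p of 0.00025 for miR-338, the smallest it can give, 0.006 for miR-219-2-3p and 0.0228 for miR-219-5p. It shuffles the arrays of a rat as independent units, so regions of the same animal, and not the 3 rats, are its replicates. Within rats 4, 5 and 6 the difference was 0.85, 1.93 and 1.37 for miR-338 and 0.59, 2.50 and 1.93 for miR-219-2-3p. For miR-219-5p it was 0.03, 2.27 and 1.26, so that rat 4 showed almost none. Without the lumbar array of rat 4 the mean difference of miR-219-5p was 1.52, without rat 4 1.76 and without rat 5 0.65. Without the hippocampus array of rat 5 the differences were 1.02 for miR-219-5p, 1.49 for miR-219-2-3p and 1.22 for miR-338, and without it and both rat 4 arrays 1.35, 1.82 and 1.24. The rat 5 arrays of medulla and of the 3 levels of the cord carry 2 rat numbers in their labels, and without all 8 such arrays the differences were 0.95 for miR-219-5p, 1.43 for miR-219-2-3p and 1.33 for miR-338. With slide as a fixed term miR-219-5p differed by 0.51 (adjusted p = 0.13) and was no longer called, whereas miR-219-2-3p (1.09, adjusted p = 0.000109) and miR-338 (1.21, adjusted p = 0.000866) were. The only slide with both cord and cerebrum held the cord and the thalamus of rat 4. Slide and organ can thus hardly be told apart in this comparison.

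Medulla was higher than cerebellum for all 3 members, in 3 of 3 rats, where 43.2% of miRNAs were called in the fit on all arrays, 31.3% as higher and 11.9% as lower, and 35.9% were called and 26.1% higher in the fit on the central nervous system arrays alone. miR-219-5p was 2.30 higher (SE 0.59, adjusted p = 0.00459), miR-219-2-3p 2.56 higher (SE 0.61, adjusted p = 0.00249) and miR-338 1.79 higher (SE 0.31, adjusted p = 0.000151). Those errors are of the latter fit, and the fit on all arrays gave adjusted p of 3.1e-13, 3.9e-18 and 7.0e-06. Cerebellum of rat 6 was the lowest array for both arms of miR-219, at -1.17 for miR-219-5p and -1.32 for miR-219-2-3p against its organ's other rats. On the slide that held both organs of rat 4, the differences were 1.52, 1.99 and 1.28 in the order miR-219-5p, miR-219-2-3p and miR-338. Scaled by the 75th percentile of all miRNAs, miR-338 differed by 0.81 (adjusted p = 0.115), a setting that moved the median of all tested miRNAs by -0.96 in this comparison. Under it miR-219-5p differed by 1.32 and miR-219-2-3p by 1.58, both still called.

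**Figure D3:**
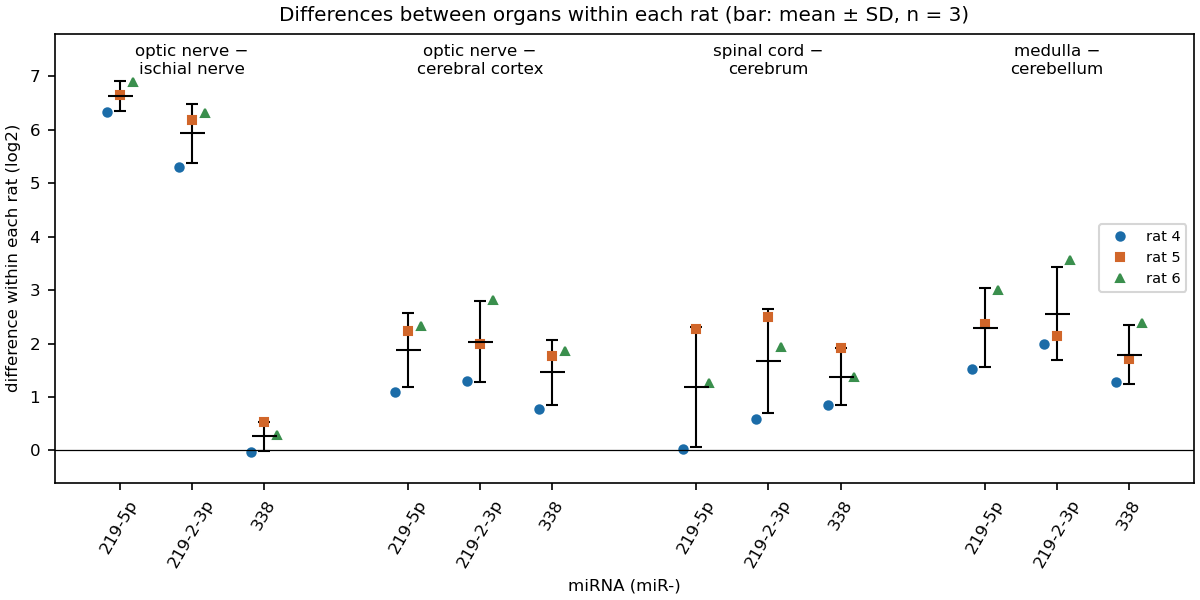
Log2 differences between organs within each rat for the 3 members, with the mean and SD over 3 rats; differences of miR-219 from ischial nerve are measured from the floor. miR-338 lies near 0 for optic nerve against ischial nerve and above 0 in the other 3 comparisons in every rat.

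The summed signal of the neuronal markers, most of it miR-124 and miR-128, was 13113 to 16950 in cerebellum and 15239 to 16339 in cortex, where the members were lowest, 2666 to 3559 in the cervical and pectoral cord, and 456 to 727 in optic nerve. The other markers did not all follow this, as miR-137 was 141, 132 and 82.8 in cerebellum and 107, 141 and 101 in the cervical cord. Nor did all samples, since the lumbar cord of rat 4 was low in both neuronal markers and miR-219. The part of the neuronal share of the RNA in these differences was not tested. Leukocyte miRNAs (miR-142-3p, miR-150 and miR-223) summed to between 170 and 897 over the 27 arrays.

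Both arms of miR-219 moved together. Over the 27 central nervous system arrays their log2 signals correlated at 0.972, over the means of the 9 organs at 0.990 and over the means of all 55 organs at 0.958. These arrays share their scaling and their RNA extracts, so the values are descriptions. miR-338 correlated over the 27 arrays at 0.810 with miR-219-5p and at 0.861 with miR-219-2-3p. Over the 24 arrays left without the lumbar and optic nerve arrays of rat 4 and the hippocampus array of rat 5, the 3 pairs were alike, at 0.974 between the arms and at 0.965 and 0.975 with miR-338. The hippocampus array was chosen on the members' own values, so nothing is read from that rise.

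To compare the arms, the log2 difference between miR-219-2-3p and miR-219-5p was taken on each array and set against its mean over the 9 organs. It was highest in cervical cord (0.38 ± 0.20, SD, n = 3), pectoral cord (0.31 ± 0.08) and lumbar cord (0.18 ± 0.13). Medulla (0.05 ± 0.21) and optic nerve (-0.10 ± 0.30) followed, and hippocampus (-0.15 ± 0.15), thalamus (-0.20 ± 0.29), cerebellum (-0.21 ± 0.24) and cortex (-0.26 ± 0.56) were lowest. All 9 arrays of the cord were above the mean, from 0.07 to 0.53, whereas the cortex spanned -0.67 to 0.38. The lumbar array of rat 4, on which both arms were low, had 0.15, within the range of the cord.

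Between spinal cord and cerebrum the arms differed by 0.49 in this measure, or 1.40-fold, and by 0.56, 0.24 and 0.67 in rats 4, 5 and 6. limma, run relative to miR-219-5p over the other 344 tested miRNAs (89% called), gave an SE of 0.27 and an adjusted p of 0.0885, with a 95% interval of -0.06 to 1.04. In this fit every miRNA carries the spread of miR-219-5p. Without the lumbar array of rat 4 the difference was 0.49 (SE 0.21, adjusted p = 0.0253). The exact permutation within rats, added after the limma result was seen and run on 6 quantities (the 3 members and the 3 pairs of them), gave p = 0.00175. Its replicates are again regions of the same animals and not the 3 rats. With slide as a fixed term the difference was 0.65 with a larger error (SE 0.69, adjusted p = 0.922), and slide and organ can again hardly be told apart here. Between optic nerve and cortex the arms differed by 0.15 (SE 0.48, adjusted p = 0.761, 95% interval -0.80 to 1.11), and between medulla and cerebellum by 0.26 (SE 0.48, adjusted p = 0.598, 95% interval -0.70 to 1.22), where 85.8% and 80.8% of miRNAs were called. Leaving out each rat gave -0.01 (without rat 6) to 0.35 (without rat 5) for the first and 0.12 (without rat 6) to 0.51 (without rat 5) for the second, and without the optic nerve array of rat 4 the first was 0.32.

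**Figure D4:**
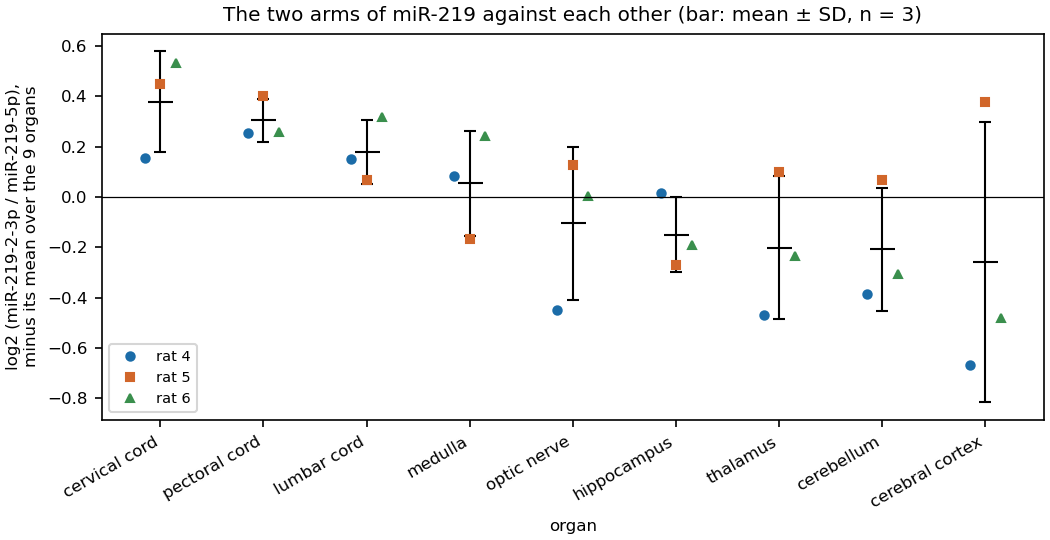
Log2 ratio of miR-219-2-3p to miR-219-5p on each central nervous system array, less its mean over the 9 organs, with the mean and SD of each organ. All 9 arrays of the spinal cord lie above 0, and the cortex holds both the lowest array and 1 of the higher ones.

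The other arm of Mir338, miR-338* (miR-338-5p in RefSeq), was detected on 4 of 180 arrays, 3 of them in the central nervous system and 1 of ischial nerve, and was not among the miRNAs tested.
miR-338*: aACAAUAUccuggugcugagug
Its signal was 14.5, 27.4 and 19.6 in the pectoral cord and 15.5, 24.8 and 15.6 in the cervical cord. It was detected on 1 of the 3 pectoral and 0 of the 3 cervical arrays, and 2.90 was its highest signal in the 43 organs outside the nervous system.

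The lumbar cord array of rat 4 separated the members from each other. Both arms of miR-219 lay about 3 log2 units under the mean of rats 5 and 6, at -2.97 for miR-219-5p and -3.01 for miR-219-2-3p, and were the lowest of all 345 tested miRNAs by this measure. miR-338 lay at -0.17. Both probe sequences of each arm showed the fall (-2.99 and -2.96 for miR-219-5p, and as low as -3.02 for miR-219-2-3p). On this array 88 of the 345 miRNAs lay over 1 log2 unit from the other rats. Blood miRNAs (miR-451 and miR-144) summed to 847 against 144 and 53.7, fibroblast miRNAs to 713 against 152 and 373, and leukocyte miRNAs to 897 against 499 and 428. The leukocyte miRNAs did not all go the same way. miR-142-3p and miR-223 were higher on this array than in rats 5 and 6, whereas miR-150 was lower (194 against 306 and 262). Neuronal miRNAs summed to 1112 against 3846 and 2201. In ischial nerve blood miRNAs summed to 47.4 to 115, leukocyte miRNAs to 411 to 752, neuronal ones to 68.9 to 72.1 and fibroblast ones to 1769 to 1973. The blood and leukocyte sums of this array lay above those of the nerve, and its fibroblast and neuronal sums between those of the nerve and the other lumbar arrays. Their part in the low miR-219 was not tested.

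Hippocampus of rat 5 was low in all 3 members, at -1.51 for miR-219-5p, -1.69 for miR-219-2-3p and -1.48 for miR-338 against the mean of rats 4 and 6. There 29 of the 345 miRNAs lay over 1 log2 unit away. The neuronal sum was 8853 against 9612 and 10709, so that array differed less in this sum than in the members. Of the neuronal markers miR-137 was higher there (470 against 190 and 436), while miR-124, miR-128 and miR-153 were lower. In the optic nerve of rat 4 the members lay at -0.44, -0.95 and -0.49 against the other rats in the same order.

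**Figure D5:**
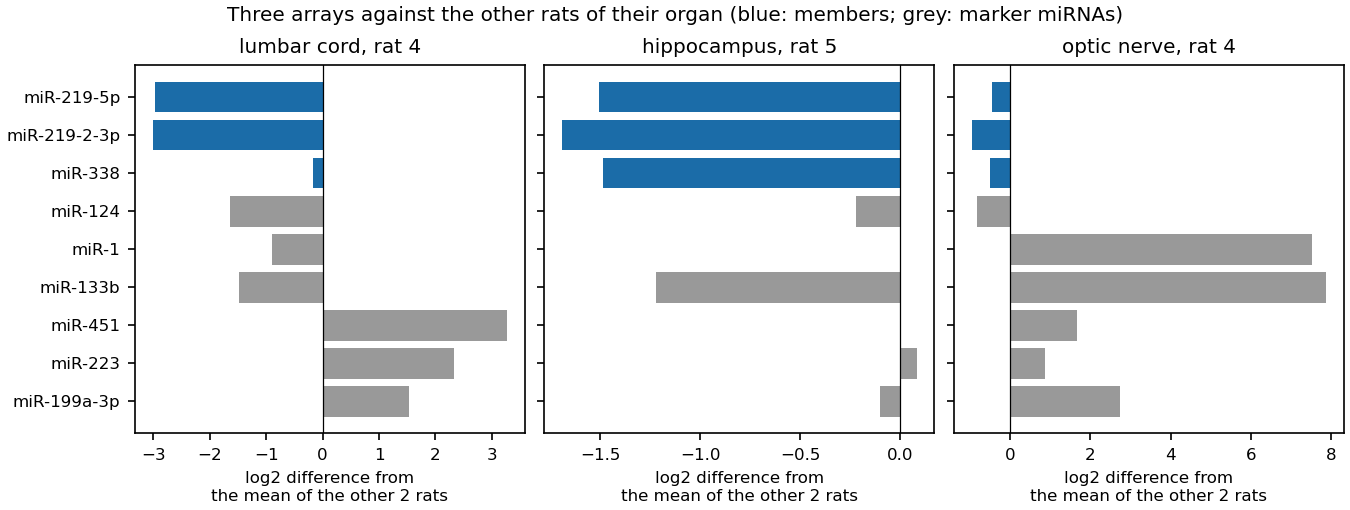
Log2 difference of 3 arrays from the mean of the other 2 rats of the same organ, for the members (blue) and for markers of neurons (miR-124), skeletal muscle (miR-1 and miR-133b), blood (miR-451), leukocytes (miR-223) and fibroblasts (miR-199a-3p). In the lumbar cord of rat 4 both arms of miR-219 are low while miR-338 is not, and in the hippocampus of rat 5 all 3 are low. Some listed markers that are not drawn went the other way. The leukocyte miR-150 was lower in that lumbar cord (194 against 306 and 262). The neuronal miR-137 was higher in that hippocampus (470 against 190 and 436).

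The eyeball, which holds retina and the start of the optic nerve, had miR-338 at 2.12 above the 43 organs outside the nervous system (SE 0.25, adjusted p = 6.4e-13), where 68.1% of miRNAs were called, 33.3% as higher and 34.8% as lower. miR-219-5p was not well above background there (0 of 3 arrays). In the pituitary gland miR-338 differed by 0.47 (SE 0.25, adjusted p = 0.0778), where 82.3% of miRNAs were called, 37.7% as higher and 44.6% as lower. This difference was called as lower under 2 other scalings, and as higher with scan day as a term and without rat 4. All 5 epithelial miRNAs were detected in the pituitary gland on all 3 arrays, and 4 of the 5 in the eyeball.

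No difference between perfused and unperfused organs passed for miR-338. Perfused liver had 61.5, 56.9 and 46.8 and liver that was not perfused 42.9, 53.0 and 44.2. Over liver, kidney, lung, cardiac atrium and interventricular septum the log2 difference ran from -0.32 to 0.25, each with an adjusted p of 1 and SE of 0.35, while 0.58%, 0.29%, 0%, 0.29% and 0.29% of miRNAs were called. The interaction of perfusion and organ had an adjusted p of 1 for each member. miR-219-2-3p was detected in none of these 30 arrays.

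Over the 55 organs, the miRNAs outside the members with the most similar log2 means were named by Pearson correlation. For miR-219-5p they were miR-9* (0.851), miR-138 (0.846) and miR-598-3p (0.844), for miR-219-2-3p miR-9* (0.903), miR-9 (0.888) and miR-138 (0.886), and for miR-338 miR-138 (0.860), miR-9* (0.845) and miR-9 (0.831). Rank correlations were lower, for example 0.378 for miR-9* with miR-219-5p and 0.670 for miR-138 with miR-338. All 4 of these miRNAs were higher in the central nervous system than outside, as the members were. miR-9, known from neural progenitors, was lower in optic nerve than in cortex (-2.64, adjusted p = 1.0e-24 in the fit on all arrays), as were miR-9* (-2.18), miR-138 (-3.63) and miR-598-3p (-2.21), where the members were higher. All 4 were also lower in spinal cord than in cerebrum (-0.90 for miR-9 to -0.26 for miR-598-3p). In medulla against cerebellum miR-138 was higher, as the members were (1.13, adjusted p = 4.3e-11), miR-598-3p was lower (-0.57) and miR-9 and miR-9* did not pass.

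10 further miRNAs reported to change in oligodendrocytes or their precursors were followed as a list (miR-138, miR-23a, miR-32, miR-17-5p, miR-19b, miR-145, miR-125a-3p, miR-212, miR-204 and miR-27a), and all 10 were tested in the fit on all arrays. In optic nerve against cortex 3 were higher, 2 were lower and 5 did not pass, with a list median of 0.10 against 0 over all miRNAs, of which 47.8% were called. miR-204 (3.03), miR-23a (1.38) and miR-27a (0.93) were higher, as the members were, and miR-138 (-3.63) and miR-212 were lower, the latter with a mean signal of 2.20 in optic nerve, under the floor, so that its difference of -3.25 is measured from the floor. In optic nerve against ischial nerve miR-204 was higher (1.90), miR-138, miR-145 and miR-27a were lower and 6 did not pass, where 38.3% of all miRNAs were called. Among these 6, miR-32, miR-125a-3p and miR-212 had mean signals under the floor in both nerves, where a difference cannot be read. The means of miR-32 and miR-125a-3p were also under it in cortex. Spinal cord against cerebrum gave 4 higher, 2 lower and 4 that did not pass (list median 0.09, with 51.3% of all called), and medulla against cerebellum 6, 1 and 3 (list median 0.98, with 43.2% of all called). Against the organs outside the nervous system, 3 were higher and 7 lower in the central nervous system, and 4 were higher and 3 lower in ischial nerve, where 95.9% and 68.4% of all miRNAs were called. miR-204 was highest in eyeball of all 55 organs, and miR-23a in tongue.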

How the data were processed

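RNA of each organ was hybridised to custom 1-color Agilent rat miRNA arrays, 1 array per organ and rat. The authors deposited the scanner output, read with Feature Extraction 10.7.3 per the submitters' processing notes, and a table scaled to the 75th percentile. The spot intensity that the authors deposited is background-subtracted. Here the spots of a miRNA were averaged without outlier flags, divided by each array's 75th percentile (taken over 37 miRNAs that no array missed), brought back to a common scale, floored at 10.8 and taken to log2. A fold against a group at the floor is a lower bound only where the lowest detected signal of its arrays did not lie above the floor. The 345 miRNAs that at least 1 of the 60 groups detected in all its 3 arrays were fitted with limma 3.58.1 (R 4.3.3), 1 term per group, and p-values were adjusted by Benjamini-Hochberg over all of them, with a threshold of 0.05. To compare the arms, limma was run on the 27 arrays of the central nervous system alone, on values relative to miR-219-5p. The number of arrays limits the precision. Scripts (Python 3.11.15, numpy 2.4.6, matplotlib 3.10.9) were tested on simulated data, and 0 columns were left unmatched.

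The members, the lists of marker and oligodendrocyte miRNAs, and the organs compared were chosen with earlier results of these data known. The miRNAs named are the members, the other arms of their hairpins, the 3 miRNAs most correlated with each member and those lists. Arrays of the same rat number come from the same animal per the labels, and their residuals correlated at 0.05 on average, against -0.02 for different rats. The rat was a block in an alternative only, since the study's methods name no such term. 8 arrays carry 2 rat numbers. Alternatives were other scalings, normexp background on the median signal, the authors' table, other floors and filters, slide (23) or scan day (3) as terms, and leaving out each rat. The fit on the central nervous system alone, the 3 arrays left out, the permutation for the arms and the order of organs under other scalings were added after seeing the data.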

Additional observations from a re-analysis of the deposited data

How the results depend on the processing

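The difference of the members between the central nervous system and the organs outside kept its direction and its call in limma under every alternative run, and so did the differences of both arms of miR-219 between optic nerve and ischial nerve and of all 3 members between optic nerve and cortex, where the exact permutation of 3 arrays against 3 cannot go under p = 0.1. The sizes did move. Against the organs outside they ran from 2.90 to 6.07 for miR-219-5p, 2.61 to 7.35 for miR-219-2-3p and 4.06 to 6.07 for miR-338. Between optic nerve and ischial nerve they ran from 4.63 to 8.27 for miR-219-5p and 3.93 to 7.93 for miR-219-2-3p. The order of organs did not hold: by the 75th percentile over all miRNAs and in the authors' table optic nerve led for all 3 members (log2 means of 9.99, 9.29 and 11.53 by the percentile, and 9.48, 9.24 and 11.25 in the highest level of the cord, for miR-219-5p, miR-219-2-3p and miR-338). miR-338 between optic nerve and ischial nerve passed under no alternative (-0.03 to 0.57, adjusted p from 0.287 to 1). miR-219-5p between cord and cerebrum was 0.51 with slide as a fixed term (adjusted p = 0.13), a term nearly confounded with these organs. Without each rat it was 0.65 to 1.76. miR-338 between medulla and cerebellum was 0.81 with the 75th percentile over all miRNAs (adjusted p = 0.115). The arms between cord and cerebrum passed without the lumbar array of rat 4 (0.49) and without the 3 arrays singled out (0.47). They passed by the exact permutation (0.49), whose replicates are regions and not rats. They also passed with 12 organs in the fit (0.49), where the added ischial nerve, eyeball and pituitary gland hold miR-219-2-3p at the floor. Such arrays have little or no spread, so that SE (0.21 against 0.27) is too small and nothing is read from that pass. Without each rat the difference lay at 0.40 to 0.62. The cause of these changes was not tested.

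Values near the floor depended on the processing. miR-219-5p in eyeball against the organs outside was -0.48 (adjusted p = 0.0197), -0.33 in the authors' table, 0.024 with normexp, -0.032 with a floor 4 times as high, 0.0075 with one 4 times lower, 0.0089 with slide as a fixed term, and -0.49 to -0.48 without each rat, no longer called without rat 5 (adjusted p = 0.067) or rat 6 (0.109). In ischial nerve it was -0.33 in the authors' table, -0.032 with the higher floor, -0.61 with slide and -0.49 to -0.48 without each rat. miR-219-2-3p, at the floor on both sides, was -1.38 in ischial nerve with normexp. In pituitary gland miR-219-5p was -0.41 with the percentile over all miRNAs and -0.63 with quantile normalization, both called. There miR-338, not called at 0.47, was called as lower under these scalings (-0.78 and -0.71, adjusted p = 0.00959 and 0.00522) and as higher with scan day as a term (0.54, adjusted p = 0.0339) and without rat 4 (0.57, adjusted p = 0.0369), with 0.39 to 0.57 without each rat. The percentile over all miRNAs moved the median of all tested miRNAs by -1.04 in pituitary gland and by 0.80 between optic nerve and cortex.

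With the rat as a replicate block no call of a member changed (miR-219-5p between cord and cerebrum 1.19, adjusted p = 3.8e-11; arms 0.49, adjusted p = 0.115).

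Counts of miRNAs called fell when miRNAs had to be detected on at least 50% of the arrays, which left fewer to test: 135 against 331 between the central nervous system and outside, 111 against 236 for ischial nerve, 107 against 235 for eyeball, 122 against 284 for pituitary gland, 81 against 165 for optic nerve and cortex, 87 against 177 for cord and cerebrum and 85 against 149 for medulla and cerebellum. With normexp they were 66 for eyeball, 57, 74 and 63 for the last 3, and 255 against 132 for optic nerve and ischial nerve, where the higher floor gave 85. In the perfusion comparisons 0 to 8 miRNAs were called over the alternatives, against 0 to 2.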
